A study of Rattus norvegicus with 12 samples.

Results

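Tenascin C and its relatives among the matricellular proteins were followed in rat esophagus during carcinogenesis by the nitrosamine N-nitrosomethylbenzylamine (NMBA). The genes were taken by symbol: Tnc, Postn, Thbs1, Thbs2, Sparc, Spp1 and Fn1. Of these 7 genes, 6 were measured, by 7 probe sets, out of 14217 genes and 31042 probe sets tested on the array. Sparc had 2 probe sets and each of the other measured genes had 1. Thbs1 was not analysed here, since no probe set carried it as its single symbol in the annotation used.

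Matricellular proteins are secreted into the extracellular matrix, where they mostly change how cells attach, migrate and receive growth factor signals, rather than bearing load. They act through integrins, syndecans and other receptors on epithelial and stromal cells. Many are scarce in resting adult tissue and are made during development, wound repair and in the stroma of tumors, and transforming growth factor beta is a known inducer of several. Tnc encodes tenascin C, a large multi-armed glycoprotein, and Postn encodes periostin, which fibroblasts make and which binds collagen, fibronectin and tenascin C. Fn1 encodes fibronectin, which cells assemble into fibrils, so it is a structural glycoprotein as well.

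The samples were total RNA of esophageal tissue on 12 arrays, 1 for each sample, in 4 groups of 3. Per the labels, rats received subcutaneous injections of 0.2 ml, 3 times per week for 5 weeks, of NMBA at 0.3 mg/kg body weight or of its solvent, DMSO and water at 1:4, and were housed 3 per cage. The groups were a normal control, NMBA at week 6 (called the early stage), NMBA at week 15 (the middle stage) and NMBA at week 29 (the late stage). The sources used here give neither strain, sex and age, nor the week at which controls were sampled, nor whether weeks ran from the first or the last injection. Nothing in the labels says that each array was a separate animal, so p-values measure only the spread between these samples. All values below are log2 signals of a probe set, and a difference of 1 is a 2-fold change. Levels are not compared between genes.

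The label calls for epithelium stripped of deeper layers, and the arrays held both epithelium and other tissue. The basal keratin gene Krt5 had a log2 signal between 12.4 and 13.7 on the 12 arrays. A score over 37 skeletal muscle genes, their mean log2 signal on 1 array, ran from 11.6 to 12.1 in the control group, from 12.4 to 12.5 in the week 6 group, from 10.0 to 11.6 in the week 15 group and from 12.1 to 12.3 in the week 29 group. All week 15 arrays thus lay below every control, and all week 6 and week 29 arrays lay above every control. A fibroblast score over 18 genes ran from 8.93 to 9.43 in the control group, from 9.09 to 9.25 in the week 6 group, from 8.17 to 8.66 in the week 15 group and from 8.92 to 9.27 in the week 29 group. In whole tissue, fewer cells of a type and less RNA per cell cannot be told apart.

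The sequences just before the gene starts of Tnc, Postn and Sparc are shown because these 3 genes gave the calls against control. They are the 100 bases upstream of the annotated start, 5′ to 3′ on the gene's strand, from RefSeq on the rat build GRCr8, and capitals mark a motif match. The Tnc stretch lies at chr5:82476132-82476231 on the minus strand, that of Postn at chr2:140677961-140678060 on the plus strand and that of Sparc at chr10:40038817-40038916 on the minus strand.
Tnc: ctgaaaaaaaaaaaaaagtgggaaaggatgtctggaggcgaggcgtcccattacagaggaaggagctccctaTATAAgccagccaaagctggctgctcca
Postn: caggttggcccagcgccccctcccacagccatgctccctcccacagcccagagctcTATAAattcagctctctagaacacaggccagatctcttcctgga
Sparc: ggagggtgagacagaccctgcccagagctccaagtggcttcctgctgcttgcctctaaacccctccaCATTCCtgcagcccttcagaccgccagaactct
Both strands were searched for TATAA, the core of a TATA box, for TGACTCA, the AP-1 motif, and for GGAATG, the TEAD motif. TATAA began 28 bases before the start of Tnc and 44 bases before that of Postn, and GGAATG lay on the other strand 33 bases before the start of Sparc. Among 33469 promoters of the same length, 10.95% held TATAA, 1.58% TGACTCA and 4.93% GGAATG. The 4 members with an entry in the table (Tnc, Postn, Sparc and Spp1) held TATAA in 2, GGAATG in 1 and TGACTCA in 0 cases. These are matches of letters and say nothing of whether a factor binds there.

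Against control, the members that passed the test were lower, and Tnc showed the largest difference. Tnc was lower at week 6 and week 29, Postn at week 15, and Sparc at weeks 15 and 29. Fn1 differed only between NMBA weeks, and Thbs2 and Spp1 passed in none of 6 comparisons. All tests are from limma's moderated test with Benjamini-Hochberg adjustment over all 31042 probe sets, and a probe set counts as called where the adjusted p is under 0.05. The 3 comparisons with control share the same 3 control samples.

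At week 6, 1 of 6 measured members was called lower and 0 higher, while over all probe sets 2.44% were called lower and 5.11% higher. At week 15, 2 of 6 members were called lower and 0 higher, beside 6.21% and 1.7% of all probe sets. At week 29, 2 of 6 members were again called lower and 0 higher, beside 7.44% and 7.72% of all probe sets. The median log2 difference of the 6 members was -0.28, -0.33 and -0.40 at weeks 6, 15 and 29, beside -0.03, 0.03 and 0.01 over all genes. With 6 genes these shares rest on 1 or 2 genes each. Over the 4 groups at once, limma's F test called Tnc (adjusted p = 0.000725), Sparc (0.00528) and Postn (0.0388), 3 of 6 members, beside 35.1% of all probe sets.

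Counted by groups that do not overlap, 1 member (Thbs2) had all week 6 samples above all controls and 1 (Tnc) all below, as had 18.7% and 17.2% of all probe sets. At week 15, 0 members lay wholly above the controls and 3 (Postn, Sparc and Fn1) wholly below, beside 13.2% and 13.1%. At week 29, 1 member (Thbs2) lay wholly above and 2 (Tnc and Sparc) wholly below, beside 22.1% and 15.7%.

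**Figure D1:**
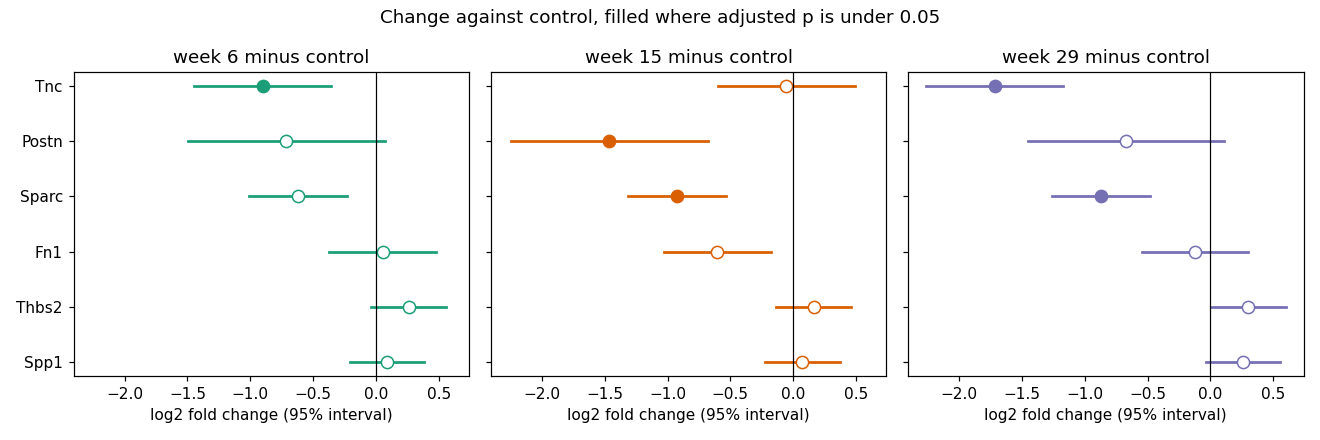
Log2 difference from control for each measured member at NMBA weeks 6, 15 and 29, with its 95% confidence interval from limma (3 arrays per group). Filled points are called. Tnc lies farthest below 0 at week 29 (-1.72) and Postn at week 15 (-1.46), while the intervals of Spp1 reach across 0 at all 3 weeks.

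Tnc (probe set 1373401_at), the gene of tenascin C, had nearly the same signal in all controls. The control values were 7.41, 7.35 and 7.40. They were 6.07, 6.45 and 6.95 at week 6, 7.92, 7.0 and 7.08 at week 15, and 5.90, 5.76 and 5.36 at week 29. Every week 6 and week 29 sample was below every control, and every week 29 sample was below every week 6 sample. The week 15 samples lay on both sides of the controls, with replicate 1 above them and replicates 2 and 3 below.

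Tnc fell by 0.90 ± 0.25 on the log2 scale at week 6 (SE, n = 3 per group, adjusted p = 0.0489), or 1.87-fold. It fell by 1.72 ± 0.25 at week 29 (adjusted p = 0.00596), or 3.29-fold, and ranked 27 from the lowest among the 14217 genes. At week 15 the difference from control was -0.06 ± 0.25, with a 95% confidence interval from -0.60 to 0.49 and an adjusted p of 0.910. The week 29 call held without each of the 12 arrays in turn (adjusted p from 0.00266 to 0.0389). The week 6 call was lost without control replicate 1, 2 or 3 (adjusted p = 0.130, 0.0798 and 0.129), week 6 replicate 1, 2 or 3 (0.150, 0.125 and 0.0705), or week 29 replicate 2 or 3 (0.0683 and 0.0514).

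The order of the group means of Tnc was control (7.39 ± 0.03, SD, n = 3), week 15 (7.33 ± 0.51), week 6 (6.49 ± 0.44) and week 29 (5.67 ± 0.28). Control and week 15 did not pass the test against each other. Between NMBA weeks, Tnc was higher at week 15 than at week 6 by 0.85 ± 0.25 (adjusted p = 0.0195) and fell by 1.66 ± 0.25 from week 15 to week 29 (adjusted p = 0.000358). The step from week 6 to week 15 was not called without week 6 replicate 1 or 2 (adjusted p = 0.0831 and 0.053) or week 15 replicate 1 (0.0771), and that from week 15 to week 29 held without any single array. Between week 6 and week 29 the difference was -0.82 ± 0.25 with an adjusted p of 0.371 (unadjusted 0.00688). In that comparison limma called 0 of 6 members and 0% of all probe sets (1 member and 3005 probe sets at an unadjusted p under 0.05). Week 29 lay wholly above week 6 for 0 members and wholly below for 1 (Tnc), beside 11.4% and 6.08% of all probe sets.

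**Figure D2:**
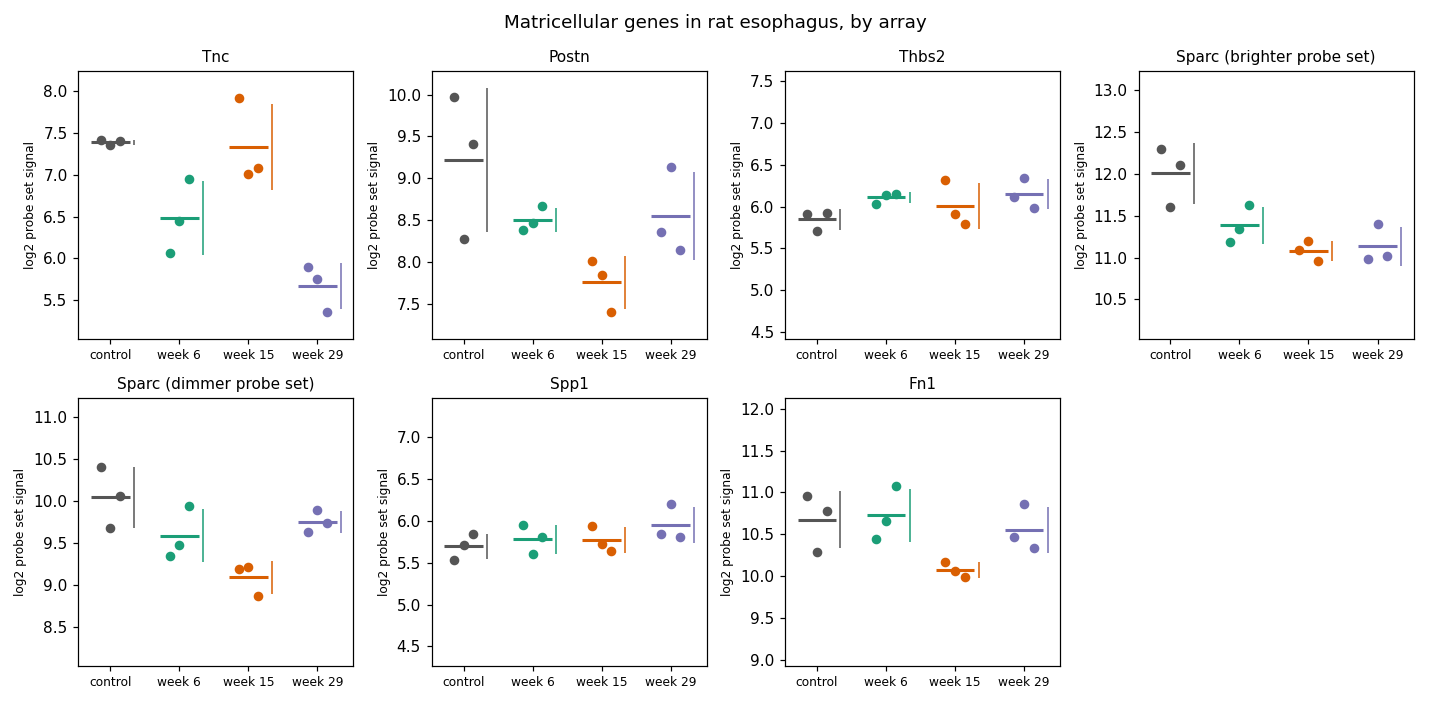
Log2 signal of each member probe set in the 12 arrays, by group, with each point 1 array, the bar the group mean and the line beside it the mean ± SD of 3 arrays. The 3 control points of Tnc lie between 7.35 and 7.41 and its week 29 points between 5.36 and 5.90, while the points of Spp1 stay between 5.53 and 6.20 in all groups.

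Basal epithelial marker genes were lower at weeks 6 and 29, the weeks at which Tnc was lower. A measure that grows as RNA degrades was lower at these weeks too, so by it the RNA was less degraded there. A score over 11 basal keratinocyte genes ran from 11.1 to 11.4 in the control group, from 10.5 to 10.8 in the week 6 group, from 11.2 to 11.6 in the week 15 group and from 10.3 to 11.1 in the week 29 group. Of its 11 genes, 3 were called lower at week 6, 1 at week 15 and 6 at week 29. Of all probe sets, 2.44%, 6.21% and 7.44% were called lower at these weeks, which is the background for the next lists too. Some suprabasal squamous genes were called lower at weeks 6 and 29 as well. Some endothelial genes were called lower at all 3 weeks, and some smooth muscle genes at weeks 15 and 29. Of 12 suprabasal squamous genes 2 were called lower at week 6 and 8 at week 29, where Sprr3, an envelope protein of squamous epithelium, fell by 2.68 (adjusted p = 0.0083), and their score ran from 9.59 to 9.96 in the control group, from 8.71 to 9.31 in the week 6 group, from 9.78 to 10.7 in the week 15 group and from 8.31 to 8.67 in the week 29 group. Of 12 endothelial genes 4 were called lower at week 6, 4 at week 15 and 9 at week 29, and of 12 smooth muscle genes 0, 4 and 6. At week 29, 1 smooth muscle gene was called higher, beside 7.72% of all probe sets. The part of these 3 lists in the Tnc result was not tested. With the basal keratinocyte score as a covariate the difference of Tnc from control was -0.70 at week 6 (adjusted p = 0.604) and -1.49 at week 29 (adjusted p = 0.386), and 0 and 5 of all probe sets were called. The 3′ minus 5′ signal of the GAPDH control probe sets, which grows as RNA degrades, was 0.40 ± 0.16 (SD, n = 3) for control arrays and 0.40 ± 0.19 for week 15 arrays, against 0.11 ± 0.04 for week 6 and 0.17 ± 0.04 for week 29 arrays. With it as a covariate Tnc stood at -0.54 (adjusted p = 0.636) and -1.44 (adjusted p = 0.068), and 8 and 132 of all probe sets were called. With the skeletal muscle score as a covariate Tnc was at -0.90 at week 6 (adjusted p = 0.151) and -1.71 at week 29 (adjusted p = 0.0132), and with the fibroblast score at -0.88 (adjusted p = 0.0499) and -1.64 (adjusted p = 0.00857).

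The genes most like Tnc were named by their Pearson correlation with it over the 12 arrays, among 13970 other genes. They were Bcr, a GTPase regulator (r = 0.985), Ccl2, a monocyte-attracting chemokine (0.963), Tacr1, the substance P receptor (0.959), Cnn2, the actin-binding protein calponin 2 (0.950), and Tes, the focal adhesion protein testin (0.942). Ccl2 had group means of 6.07 for week 15, 5.97 for control, 5.38 for week 6 and 4.92 for week 29. Around the group means, the deviations of these 5 genes correlated with those of Tnc, from r = 0.760 for Tacr1 to 0.973 for Cnn2. Those deviations are part of the r by which the 5 genes were picked, so they add no separate support. The arrays share their groups and the score and quality differences above, so these r describe the arrays only.

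**Figure D3:**
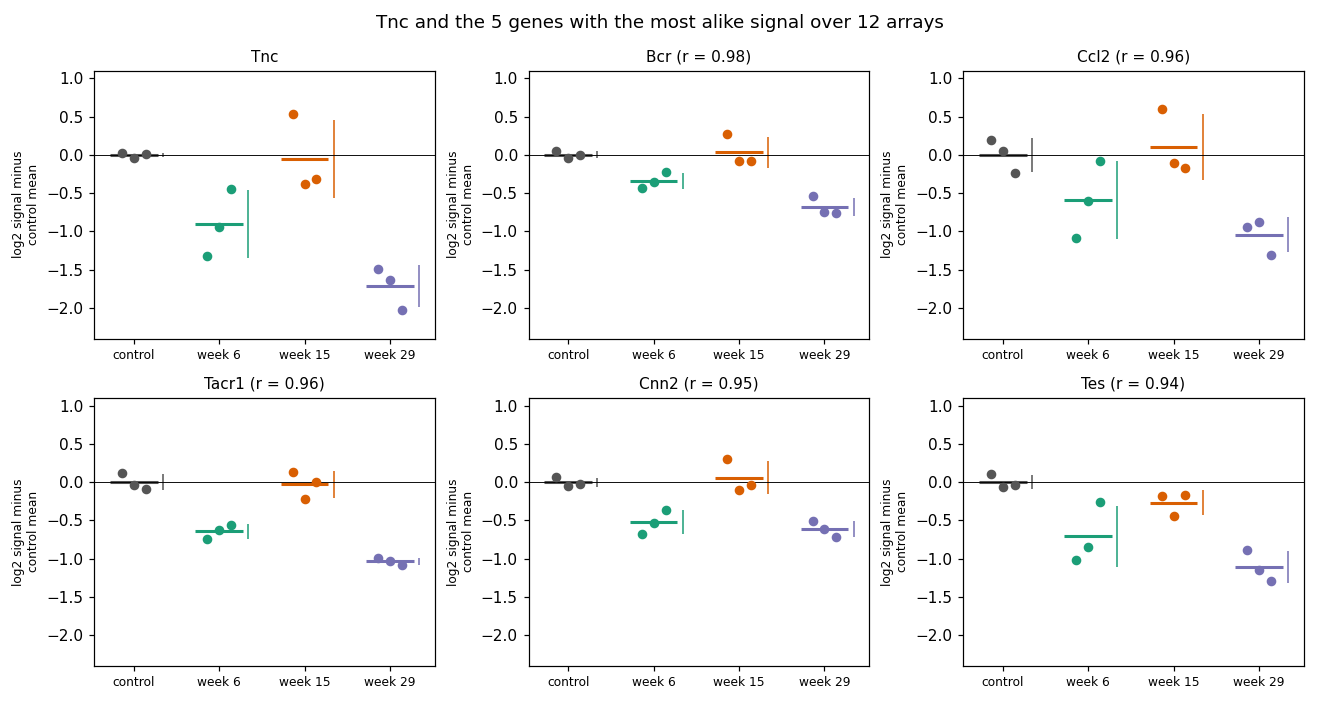
Log2 signal on the 12 arrays of Tnc and of the 5 genes with the highest Pearson r to it, each minus its own mean over the controls, with bars for group means and lines for ± SD. All 6 genes lie lowest at week 29, where the Tnc mean is 5.67 against 7.39 in controls and that of Ccl2 is 4.92 against 5.97.

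Postn (1373911_at), periostin, was lower at week 15. Its control values were 9.97, 8.27 and 9.41. The week 6 values were 8.39, 8.47 and 8.67, the week 15 values 8.02, 7.85 and 7.40, and the week 29 values 8.36, 9.14 and 8.15. All week 15 samples were below all other samples, whereas week 6 and week 29 samples overlapped the controls, of which replicate 2 was the lowest by a wide gap. That control array also stood apart in Krt19 and Krt8, keratin genes of simple epithelium. They were at 8.79 and 8.93 on it, against 6.16 and 6.09 on control replicate 1 and 5.56 and 6.02 on control replicate 3. The score over 11 mucous gland genes was 6.51 on it, against 5.80 on both other controls. That score includes Krt19 and Krt8, so it is not a separate observation. Week 15 replicate 2 was likewise higher than the other week 15 arrays in Krt19 (7.88 against 5.10 and 5.36). The part of these markers in the values of Postn, Sparc and Fn1 was not tested, and results without control replicate 2 are given with each gene. Control replicate 2 held the lowest control value of each of these genes, so leaving it out necessarily makes their differences from control more negative.

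Postn fell by 1.46 ± 0.36 at week 15 (SE, n = 3 per group, adjusted p = 0.0296), or 2.76-fold. The differences at week 6 (-0.71, adjusted p = 0.233) and week 29 (-0.67, adjusted p = 0.217) did not pass. In order, the group means were 9.22 ± 0.86 (SD) for control, 8.55 ± 0.52 for week 29, 8.51 ± 0.14 for week 6 and 7.76 ± 0.32 for week 15, and no pair of neighbours in this order passed. The week 15 call was lost without control replicate 1 (-1.09, adjusted p = 0.0837), control replicate 3 (-1.36, 0.091) or week 15 replicate 3 (-1.29, 0.0964). Without control replicate 2, Postn was called lower at all 3 weeks (-1.18 at week 6 with adjusted p = 0.0327, and -1.14 at week 29 with adjusted p = 0.0236), and week 15 was then also called against week 6 (adjusted p = 0.0329) and week 29 (0.0268). Without control replicate 1, the highest control, the differences were -0.34 at week 6 and -0.30 at week 29, and neither was called.

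Fibroblast and muscle markers were lower together with Postn at week 15. Of the 18 fibroblast genes 8 were called lower at week 15 (from 4 without control replicate 3 and 5 without control replicate 1 to 9 without week 15 replicate 2), and the score ranges given above did not overlap those of controls. Of 37 skeletal muscle genes, 8 were called lower at that week. Both counts stand beside 6.21% of all probe sets called lower at week 15. With the fibroblast score as a covariate the difference of Postn was 0.10 (adjusted p = 0.949), and with the muscle score it was -1.33 (adjusted p = 0.309). Under these covariates 1 and 0 of all probe sets were called at week 15, so a score and the week cannot be told apart for most probe sets. The genes most like Postn over the arrays were Fam114a1 (r = 0.969), Nr2f1, a nuclear receptor (0.955), and Epb41l2, a membrane skeleton protein (0.947).

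**Figure D4:**
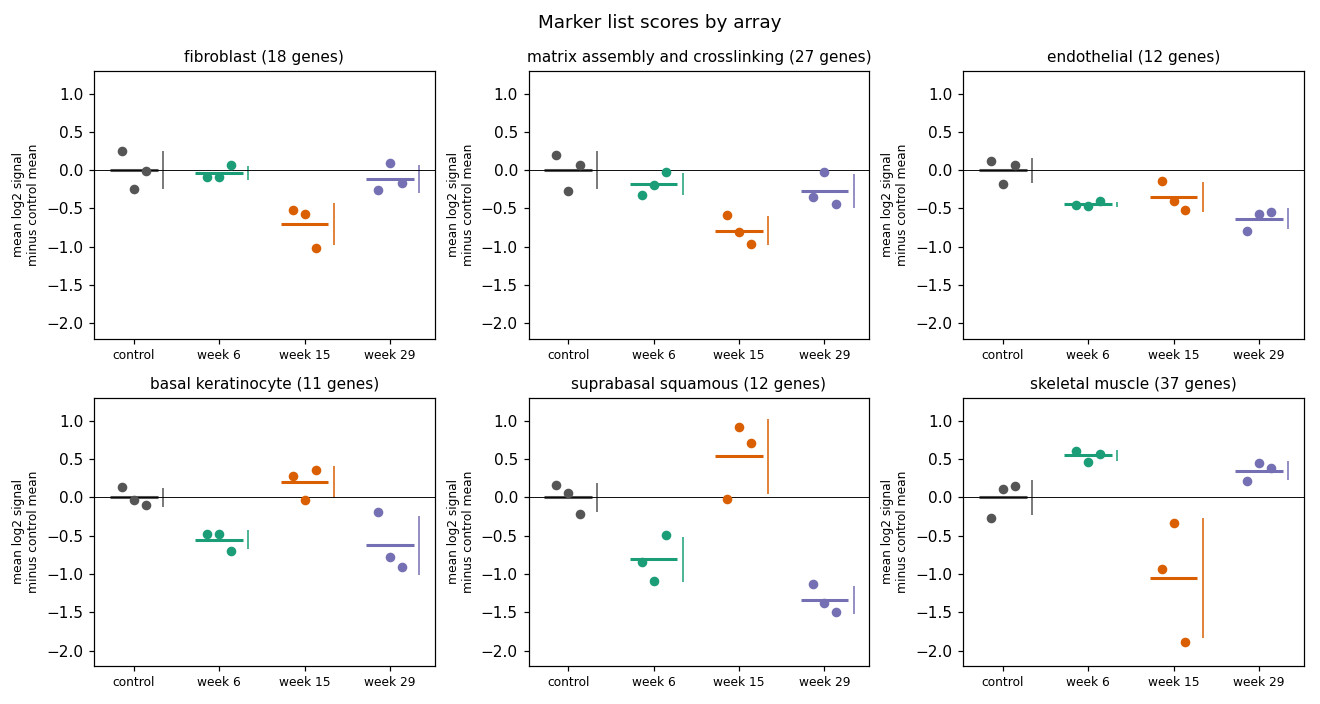
Mean log2 signal of 6 marker lists on each of the 12 arrays minus the control mean, by group, with each point 1 array, the bar the group mean and the line ± SD. The fibroblast score of the week 15 arrays (8.17 to 8.66) lies below that of all other arrays, and the basal keratinocyte score is lower at weeks 6 and 29 than in controls.

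Sparc encodes osteonectin, a collagen-binding glycoprotein that takes part in collagen fibril assembly. On probe set 1367563_at its control values were 12.30, 11.60 and 12.11. The week 6 values were 11.19, 11.34 and 11.63, the week 15 values 11.08, 11.20 and 10.96, and the week 29 values 10.99, 11.41 and 11.02. All week 15 and week 29 samples were below all controls, and week 6 replicate 3 lay just above control replicate 2.

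On this probe set Sparc fell by 0.92 ± 0.18 at week 15 (SE, n = 3 per group, adjusted p = 0.0135), or 1.90-fold, and by 0.87 ± 0.18 at week 29 (adjusted p = 0.0145). At week 6 the difference was -0.62 ± 0.18 with an adjusted p of 0.0546, just outside the threshold. The NMBA weeks did not pass against each other. The week 15 call held without any single array. The week 29 call was lost without control replicate 1 (-0.72, adjusted p = 0.0603), control replicate 3 (-0.81, 0.0547) or week 29 replicate 3 (-0.81, 0.0742), and without control replicate 2 the week 6 difference was also called (-0.82, 0.019).

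The other Sparc probe set, 1367562_at, gave the same picture at week 15 and not at week 29. Its values were 10.40, 9.68 and 10.05 in controls and 9.35, 9.48 and 9.94 at week 6. They were 9.19, 9.21 and 8.86 at week 15, and 9.63, 9.89 and 9.73 at week 29. The week 15 samples were all below the controls, while the week 29 samples overlapped them. The difference from control was -0.96 ± 0.19 at week 15 (adjusted p = 0.0143) and -0.29 ± 0.19 at week 29 (adjusted p = 0.302), and from week 15 to week 29 this probe set rose by 0.66 ± 0.19 (adjusted p = 0.0161).

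The gap in log2 signal between the Sparc probe sets was smallest at week 29. For control arrays it was 1.90, 1.92 and 2.06, for week 6 arrays 1.84, 1.86 and 1.69, for week 15 arrays 1.89, 1.99 and 2.10, and for week 29 arrays 1.36, 1.52 and 1.29. All week 29 gaps were below all others, which was not tested. The week 29 fall of Sparc therefore rests on 1 of its 2 probe sets, and which parts of the transcript they read was not analysed here.

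The Sparc differences also changed with the marker scores. With the fibroblast score as a covariate the week 15 difference was -0.23 (adjusted p = 0.788), and with the muscle score -0.84 (adjusted p = 0.230). At week 29 it was -0.69 with the GAPDH difference as a covariate (adjusted p = 0.156) and -1.05 with the basal keratinocyte score (adjusted p = 0.386). The genes most like Sparc were Pea15 (r = 0.951), Vim, the mesenchymal intermediate filament vimentin (0.945), and Tspan31 (0.936).

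Fn1 (1370234_at), fibronectin, did not pass against control at any week. Its values were 10.95, 10.29 and 10.78 in controls and 10.45, 10.66 and 11.07 at week 6. They were 10.17, 10.06 and 9.98 at week 15, and 10.47, 10.86 and 10.33 at week 29. The week 15 samples were below all other samples, and the other groups overlapped.

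Between NMBA weeks Fn1 fell by 0.66 ± 0.19 from week 6 to week 15 (adjusted p = 0.0194). Against control the difference was 0.05 at week 6 (adjusted p = 0.897), -0.60 at week 15 (adjusted p = 0.0783) and -0.12 at week 29 (adjusted p = 0.697, 95% interval from -0.54 to 0.30). From week 15 to week 29 it was 0.48 (adjusted p = 0.0737). The group means ran from 10.73 ± 0.32 (SD) at week 6 through 10.68 ± 0.34 in controls and 10.55 ± 0.27 at week 29 to 10.07 ± 0.09 at week 15, and no neighbours in this order passed. The call between weeks 6 and 15 was lost without week 6 replicate 3 (-0.48, adjusted p = 0.0852) or week 15 replicate 3 (-0.61, 0.0564), and the difference was 0.0063 with the fibroblast score as a covariate. Without control replicate 2, Fn1 was called lower at week 15 than in controls (-0.79, adjusted p = 0.048) and than at week 29 (adjusted p = 0.0438). Cd48, a leukocyte surface protein (r = 0.972), Lhfpl6 (0.961) and the ribonuclease gene Rnase4 (0.957) were most like Fn1.

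Of the 6 measured members, 2 (Tnc and Fn1) were called between weeks 15 and 6, 1 higher and 1 lower, in a comparison where 20.3% of all probe sets were called higher and 17.4% lower. There 1 member (Tnc) lay wholly higher and 2 (Postn and Fn1) wholly lower, beside 27.8% and 21% of all probe sets. Between weeks 29 and 15, Tnc alone was called by its representative probe set, lower, beside 18.3% of all probe sets called lower and 17.1% higher. There 2 members (Postn and Fn1) lay wholly higher and 1 (Tnc) wholly lower, beside 21.4% and 23.2%.

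Thbs2 and Spp1 did not pass in any comparison. Thbs2 (1385751_at) encodes thrombospondin 2, an inhibitor of blood vessel growth. Its values were 5.91, 5.71 and 5.92 in the control group, 6.03, 6.14 and 6.15 at week 6, 6.32, 5.91 and 5.79 at week 15, and 6.12, 6.34 and 5.98 at week 29. All week 6 and week 29 samples lay above the controls by a small gap.

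The log2 differences of Thbs2 from control were 0.26 ± 0.14 at week 6 (95% interval from -0.04 to 0.56, adjusted p = 0.248), 0.16 at week 15 and 0.30 at week 29 (0.00 to 0.60, adjusted p = 0.151). Spp1 (1367581_a_at) encodes osteopontin, a phosphoprotein ligand of integrins and CD44 that macrophages also make. Its values were 5.53, 5.71 and 5.84 in the control group, 5.95, 5.60 and 5.80 at week 6, 5.94, 5.72 and 5.65 at week 15, and 5.85, 6.20 and 5.81 at week 29. Each NMBA group of Spp1 overlapped the controls.

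The differences of Spp1 were 0.09 (95% interval from -0.21 to 0.38), 0.07 (-0.22 to 0.37) and 0.26 (-0.04 to 0.55) at weeks 6, 15 and 29. Of 15 macrophage marker genes, 0, 0 and 2 were called lower at those weeks (Gpnmb at -0.89 and Cd14 at -0.48). Of all probe sets, 2.44%, 6.21% and 7.44% were. No detection calls were used here, so whether Thbs2 and Spp1 stood above background was not assessed.

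Genes that work with these proteins were read from further lists, chosen with earlier results of these data known. Their counts stand beside a background of 2.44%, 6.21% and 7.44% of all probe sets called lower at weeks 6, 15 and 29, and 5.11%, 1.7% and 7.72% called higher. The list of other matricellular genes (tenascins, CCN proteins, fibulins, galectins and others) held 40 symbols, and 29 genes were measured. Some of the 40 symbols are older names of CCN genes that the list also holds. Of these, 0 were called in either direction at week 6 (1 higher and 2 lower at an unadjusted p under 0.05), 1 was higher and 4 lower at week 15, and 0 were higher and 3 lower at week 29, where the background was 7.72% and 7.44%. Lgals1, galectin 1, had values of 12.12, 12.29 and 12.42 in controls and 11.51, 11.83 and 10.83 at week 15, and fell by 0.89 (adjusted p = 0.0231). The 3 genes lower at week 29 were Lgals3, galectin 3 (-0.90, adjusted p = 0.0218), Ccn2, connective tissue growth factor (-0.86, 0.0208), and Sparcl1, the Sparc relative hevin (-0.79, 0.0347). Ccn2 went from 10.74, 10.74 and 10.64 in controls to 9.97, 9.86 and 9.69 at week 29, so its groups did not overlap. Named after their values were seen, Matn2 (-0.75), Vtn (-0.73) and Fbln2 (-0.52) were also lower at week 15, and Tnn, tenascin N, was called with a difference of 0.36 (adjusted p = 0.0398). Its mean signals of 3.34 in controls and 3.70 at week 15 lay near the lowest value of the table, 2.49, and whether they stood above background was not assessed.

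Receptors of these proteins had 25 of 28 genes measured, of which 1, 0 and 1 were called higher and 5, 6 and 8 lower at weeks 6, 15 and 29, beside 2.44%, 6.21% and 7.44% of all probe sets called lower. Ptprz1, a receptor-type phosphatase that binds tenascins, had values of 8.07, 7.95 and 8.03 in the control group, 7.06, 6.97 and 6.87 at week 6 and 7.37, 6.67 and 6.29 at week 29. It fell by 1.05 at week 6 (adjusted p = 0.0261) and by 1.24 at week 29 (adjusted p = 0.0111), with no overlap with controls. Cd36, a thrombospondin receptor and fatty acid transporter that muscle also expresses, rose by 1.07 at week 6 (adjusted p = 0.0241), fell by 1.24 at week 15 (adjusted p = 0.01) and rose by 0.80 at week 29 (adjusted p = 0.034), in the same order as the muscle score. At week 15 the falls also held Sdc2, syndecan 2 (-1.09, adjusted p = 0.00221), and Cacna2d1, a calcium channel subunit that binds thrombospondins and is abundant in muscle (-1.35, 0.0279). Cd47 (-0.50) and the integrin gene Itgb3 (-0.87), named after their values were seen, were among those lower at week 29.

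The transforming growth factor beta list had 23 of 26 genes measured. At weeks 6, 15 and 29, 0, 0 and 1 genes were called higher and 1, 3 and 8 lower, beside 2.44%, 6.21% and 7.44% of all probe sets called lower. The ligand gene Tgfb3 fell by 0.94 at week 15 (adjusted p = 0.0236). At week 29, Inhba, the activin A subunit (-1.38, adjusted p = 0.0343), Tgif1, a repressor of the pathway (-0.75, 0.0195), and Tagln, a smooth muscle actin-binding protein counted in the smooth muscle list too (-1.51, 0.0342), were lower. Smad3, named after its values were seen, was lower at week 15 (-0.72, adjusted p = 0.0106) and higher at week 29 (0.58, 0.0185).

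Collagens and other genes of matrix assembly were lower mainly at week 15. Of 27 genes measured (of 28), 0 were called at week 6 (6 lower at an unadjusted p under 0.05), 18 lower at week 15 and 6 lower at week 29, with none higher at weeks 15 and 29. The list medians were -0.18, -0.91 and -0.25, beside -0.03, 0.03 and 0.01 over all genes. Col1a2, a chain of type I collagen, had values of 12.20, 11.12 and 11.70 in controls and 10.54, 10.13 and 10.07 at week 15. It fell by 1.42 at week 15 (adjusted p = 0.00926) and by 0.84 at week 29 (adjusted p = 0.0415). Mfap4 (-1.42), Col3a1 (-1.32) and Col6a3 (-1.27) were lower at week 15 as well, and among the fibroblast genes Ogn (-1.72), Prrx1 (-1.28), Lum (-1.20) and Mmp2 (-1.18).

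The list counts moved with single arrays and with the scores. At week 6 the number of receptors called lower ran from 0 to 6, and it was 0 without control replicate 1 or 3 or without any one of the 3 week 6 arrays, and 3 without week 29 replicate 2. Without each array in turn, the number of matrix assembly genes called lower ran from 11 to 18 at week 15 and from 0 to 9 at week 29, that of receptors from 2 to 6 and from 0 to 10, and that of the transforming growth factor beta list from 1 to 3 and from 0 to 9. The counts of other matricellular genes ran from 1 to 8 at week 15 and from 0 to 4 at week 29. At week 15 every one of these lists had its lowest count without control replicate 3, shared for receptors with week 15 replicate 3 and for the transforming growth factor beta list with control replicate 2. At week 29 every one of them had a count of 0 without week 29 replicate 3, and the matrix assembly and other matricellular lists also without control replicate 1 or 3. Without week 29 replicate 2 the count was 0 for the other matricellular and transforming growth factor beta lists. With either the muscle or the fibroblast score as a covariate, 0 genes of these lists were called lower at week 15, and with either the GAPDH difference or the basal keratinocyte score 0 were at week 29.

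**Figure D5:**
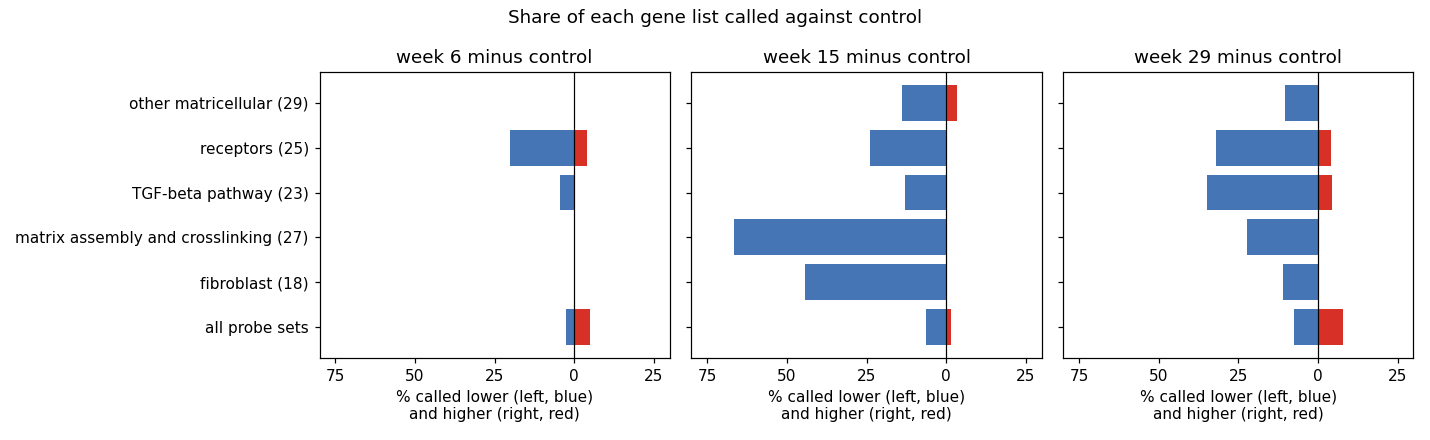
Share of the measured genes of each list called higher (right of 0) or lower (left of 0) than control at NMBA weeks 6, 15 and 29, in percent, with all probe sets in the last bar. At week 15 the matrix assembly list reaches farthest to the left (18 of 27 genes), beside 6.21% of all probe sets. Of 25 receptor genes, 8 are called lower at week 29 and 5 at week 6, beside 7.44% and 2.44% of all probe sets. At an unadjusted p under 0.05 from limma, 12 receptor genes are lower at each of these 2 weeks.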

How the data were processed

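Total RNA of rat esophagus was measured on 12 Affymetrix arrays. The authors deposited log2 probe set signals, which came from Affymetrix Expression Console according to the submitters' processing notes. Its version and summarization method were not given in the sources used here, and the log2 scale was read from the values (2.49 to 14.71). Array medians ran from 6.41 to 6.48. The 57 array controls among 31099 probe sets were dropped, with no filter on dim signal.

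Group means were fitted to all 12 arrays in 1 model with limma 3.58.1 in R 4.3.3 (two-sided, 8 residual degrees of freedom), checked on simulated data. P-values were Benjamini-Hochberg adjusted over 31042 probe sets and called at under 0.05. The number of arrays limits precision. A gene was read by the probe set with the highest mean, for 14217 genes with a single symbol in the platform annotation.

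The members and lists were chosen with earlier results of these data known. Besides the members, up to 4 called genes with the largest differences were named per list, with 5 genes most like Tnc and 3 per other member. Alternatives were array centring, a signal filter, score or GAPDH covariates, a replicate block, 6 arrays, the dimmer Sparc probe set and leaving out each array.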

Additional observations from a re-analysis of the deposited data

Results flagged for a closer look

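Differences between NMBA weeks passed limma's test for 3 genes, which means that their differences from the shared controls differed between those weeks. Tnc was higher at week 15 than at week 6 by 0.85 on the log2 scale and lower at week 29 than at week 15 (-1.66). Fn1 was lower at week 15 than at week 6 (-0.66). The dimmer Sparc probe set (1367562_at) was higher at week 29 than at week 15 by 0.66, while the other Sparc probe set differed by 0.05 (adjusted p = 0.848). The muscle and fibroblast scores of the week 15 arrays lay below those of all other arrays, and their part in these differences was not tested beyond the covariate values given here. With 3 samples in a group, no test for outlying samples was made.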

How the results depend on the processing

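Counts of members called depended on the settings as follows, and the cause was not tested. At week 6 (1 as reported) the count was 2 among probe sets above the median mean signal and with the fibroblast score, and 0 with the muscle score, the GAPDH difference, the replicate block or the basal keratinocyte score. The replicate block gave Tnc an adjusted p of 0.0643 at week 6, and the labels name no pairing by replicate number. Around group means, 18 same-numbered pairs of arrays from different groups correlated at -0.413 to 0.29. The 36 differently numbered pairs correlated at -0.344 to 0.523, and 3 of 12 arrays correlated best with their own number. With 3 arrays per group, these values cannot show whether same-numbered arrays belong together. At week 15 (2 as reported) it was 0 with the muscle score, the fibroblast score or the 6 compared arrays alone, and 1 with the basal score. At week 29 (2) it was 0 with the GAPDH difference or the basal score and 1 with the dimmer Sparc probe set. For week 15 against week 6 (2) it was 0 with the muscle, fibroblast or basal score. For week 29 against week 15 (1) it was 0 with the muscle or basal score, 3 with the GAPDH difference or the 6 arrays, and 2 with the dimmer Sparc probe set. Leaving out each array in turn gave 0 to 2 at week 6, 1 to 3 at weeks 15 and 29 and in both steps between successive NMBA weeks, and 0 for week 29 against week 6. Array centring changed no member count. The fits with the fibroblast or basal score or without the week 15 arrays, and the list counts under other settings, were chosen after seeing the data.

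Signs turned, at week 6, for Postn with the GAPDH difference (0.045) and for Spp1 (-0.011) and Fn1 (-0.020) with the basal score. With the fibroblast score at week 15 they turned for Tnc (0.41), Postn (0.097) and Fn1 (0.092), and with the GAPDH difference at week 29 for Fn1 (0.10). For week 15 against week 6 they turned with the fibroblast score for Postn (0.73), Thbs2 (0.32), Sparc (0.36), Spp1 (0.17) and Fn1 (0.0063), with the muscle score for Thbs2 (0.059) and Spp1 (0.24), and with the basal score for Spp1 (0.12). For week 29 against week 15 they turned with the fibroblast score for Postn (-0.52), Thbs2 (-0.23), Sparc (-0.53) and Fn1 (-0.10), with the muscle score for Thbs2 (-0.0018), Sparc (-0.061) and Spp1 (-0.036), and with the basal score for Sparc (-0.19). For week 29 against week 6 they turned with the GAPDH difference for Postn (-0.12) and Thbs2 (-0.024), and with the dimmer probe set for Sparc (0.16). Of these, Postn at week 15 and Fn1 between weeks 6 and 15 had been called.

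Without single arrays, differences near 0 ran across it: Fn1 from -0.14 to 0.19 at week 6 and -0.31 to 0.019 at week 29, Tnc from -0.35 to 0.11 and Spp1 from -0.011 to 0.15 at week 15, Thbs2 from -0.25 to 0.0083 and Spp1 from -0.11 to 0.067 for week 15 against week 6, Sparc from -0.079 to 0.13 for week 29 against week 15, and Postn from -0.25 to 0.24 and Thbs2 from -0.059 to 0.12 for week 29 against week 6. With array centring, 3015 of 4972 probe sets called at week 29 were higher, beside 2397 of 4705 as reported. Over all probe sets the week 6 count of 2342 became 1 with the muscle score and 4028 without the week 15 arrays, and it ran from 1 to 3454 without single arrays.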
